A study of Mus musculus with 13 samples.

Results

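The immediate early genes Fos, Fosb, Jun, Junb, Jund, Atf3, Egr1, Egr2, Egr3 and Ier2 were examined in mouse spermatogonia, the mitotic germ cells of the testis. They were chosen by name, and all 10 were found among the 20662 gene symbols of the deposited tables. Values per gene came from 1 library titled KIT and 1 library titled THY1, both labelled as spermatogonia from testes of 8-week-old C57BL/6 mice, with no treatment given in the labels. KIT is a receptor carried by differentiating spermatogonia, THY1 is a surface antigen used to enrich undifferentiated ones, and how the cells were isolated and how many animals were pooled is not given in the sources used here. The other 11 samples of the series (spermatocytes, spermatids and mature sperm) were not analysed here. Neither group is replicated, so every comparison below is between 2 libraries, without a check against replicate spread and without a p-value.

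Immediate early genes are transcribed within minutes of a stimulus, without the need for newly made protein. Fos proteins pair with Jun proteins to form AP-1, a leucine zipper factor, whereas Jun proteins can also pair among themselves. Atf3 is a stress-induced member of the same leucine zipper superfamily, Egr proteins are zinc finger factors that bind GC-rich sites, and Ier2 is a small nuclear protein induced with them. Growth factors, stress and the handling of tissue during cell isolation can each induce many genes of this group, although Jund is also expressed in many resting cells. In mice, male fertility needs Jund, and Egr2 and Egr3 have been described as genes that respond to the niche growth factor GDNF in cultured spermatogonia.

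The tables contradict the sample titles on the antigens. Kit was listed at 0 in the library titled KIT and at 36.7 FPKM (fragments normalised to transcript length and to mapped fragments) in the library titled THY1, whereas Thy1 was at 78.8 FPKM in the library titled KIT and at 0.723 FPKM in the library titled THY1. The value columns also carry the opposite antigen's name. Marker lists of spermatogonial stages also ran against the titles. Of 6 undifferentiated markers reaching 1 FPKM, Thy1 among them, 5 were at least 2-fold higher in the KIT-labelled library and 1 in the THY1-labelled library. Of 8 differentiating markers, Kit among them, 6 were higher in the THY1-labelled library and 0 in the KIT-labelled library. The shares over all genes were 39.5% in the KIT-labelled and 41.1% in the THY1-labelled library. All 8 differentiating markers have over 3 exons, and 47.2% of such coding genes were higher in the THY1-labelled library. Of the 6 undifferentiated markers 3 have 3 exons at most, and 77.5% of such coding genes were higher in the KIT-labelled library. Gfra1, Id4 and Thy1 reached 1 FPKM in the KIT-labelled library alone. Etv5, Kit, Stra8, Sohlh2, Dnmt3b, Crabp1 and Elmo1 did so in the THY1-labelled library alone. Whether the titles were exchanged was not tested. Directions follow the sample titles, written as KIT-labelled and THY1-labelled, and exchanged titles would reverse each of them. The spermatogonial markers Zbtb16 and Lin28a were listed at 0 in both libraries, and markers of other testis cells were found in both. A rough measure of what 1 fragment is worth was 6.41 times larger in the KIT-labelled library, so low values there rest on fewer fragments.

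The 10 genes did not differ in a common direction: Jun family transcripts were higher in the KIT-labelled library and Fos family transcripts were higher in the THY1-labelled library. The Jun genes have a single exon, and 89.5% of the 410 single-exon coding genes were higher in the KIT-labelled library too. Relative to the median of that class, Jund kept a difference of 1.22, Jun was at 0.26 and Junb turned to -1.11. Fos and Fosb, relative to theirs, were at -5.29 and -3.76, in a class of wider spread where 6.3% and 13.5% of genes lay lower. A gene counted as higher where it differed by at least 2-fold on the log2(FPKM + 1) scale, taken as KIT-labelled minus THY1-labelled. By this rule 5 of 10 were higher in the KIT-labelled library (Jun, Junb, Jund, Egr3 and Ier2), as were 39.5% of the 15573 genes that reached 1 FPKM in either library. In the THY1-labelled library, 2 of 10 were higher (Fos and Fosb), against 41.1% of all genes. The remaining 3 (Atf3, Egr1 and Egr2) lay within 2-fold, as did 19.4% of all genes, although Egr2 was 2.09-fold higher in the THY1-labelled library by the ratio of FPKM and passed 2-fold with a pseudocount of 0.1. The median difference of the 10 was 0.97 and that of all tested genes was -0.0026. Relative to the median of each gene's exon class the median of the 10 turned to -1.26, with 1 gene higher in the KIT-labelled library and 6 in the THY1-labelled library. These are bulk values, in which fewer cells of a type and less RNA per cell cannot be told apart.

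**Figure D1:**
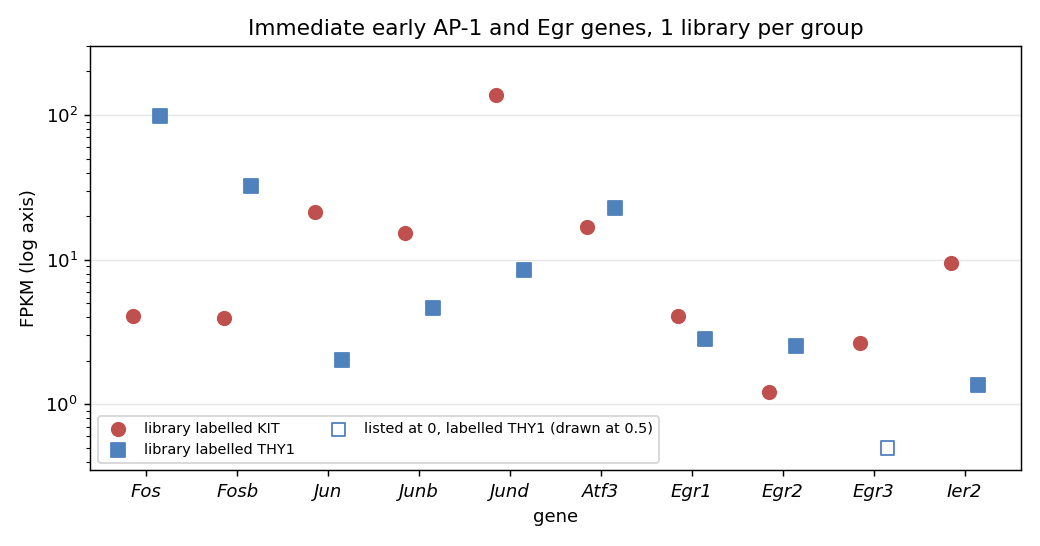
FPKM (log axis) of each of the 10 genes in the KIT-labelled library (red circles) and the THY1-labelled library (blue squares), without replicates or error bars. Fos at 4.08 and Fosb at 3.93 FPKM lie below their THY1-labelled values of 98.7 and 32.4 FPKM, Jund at 137 FPKM lies above its THY1-labelled value of 8.54 FPKM, and the open square is Egr3, listed at 0 in the THY1-labelled library and drawn at 0.5.

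Fos, the founding Fos family gene, stood at 4.08 FPKM in the KIT-labelled library, against 98.7 FPKM in the THY1-labelled library. It was 24.2-fold higher in the THY1-labelled library by the ratio of FPKM, with a difference of -4.29 on the log2(FPKM + 1) scale, the largest in size among the 10. Its close relative Fosb stood at 3.93 FPKM in the KIT-labelled library, against 32.4 FPKM in the THY1-labelled library, a difference of -2.76. In rough fragment equivalents (FPKM times transcript length, divided by the worth of 1 fragment), Fos rests on 3.15 in the KIT-labelled library and 487 in the THY1-labelled one. Fosb rests on 5.44 in the KIT-labelled library and 287 in the THY1-labelled one, so the low values of both genes are imprecise.

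All 3 Jun genes went the other way, as did 89.5% of single-exon coding genes, and relative to the median of that class only Jund of the 3 was still 2-fold higher in the KIT-labelled library. Jund, which is expressed in many resting cells, stood at 137 FPKM in the KIT-labelled library, against 8.54 FPKM in the THY1-labelled library, a difference of 3.85. Jun, the main partner of Fos, was at 21.5 FPKM in the KIT-labelled library and 2.03 FPKM in the THY1-labelled library, a difference of 2.89. Junb, often a weaker activator than Jun, was at 15.3 FPKM in the KIT-labelled and 4.65 FPKM in the THY1-labelled library, a difference of 1.53. Jund led the Jun genes in both libraries, but the order of Jun and Junb differed: Jun was above Junb in the KIT-labelled library and below it in the THY1-labelled library. Genes are annotated on the opposite strand over Jun (Junos), Junb (Prdx2), Jund (Gm11175) and Atf3 (Gm24748), and whether the authors counted by strand is not given in the sources used here. Prdx2, a peroxide-reducing enzyme, was at 21.0 FPKM in the KIT-labelled library and 181 FPKM in the THY1-labelled library, the reverse of Junb.

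The promoters of the 4 AP-1 genes with the largest differences, a pair in each direction, are shown as the 250 bases upstream of the RefSeq start (GRCm38.p6), 5′ to 3′ on the strand of the gene, with the TATAAA match in capitals. They lie at Fos chr12:85473640-85473889 (plus strand), Fosb chr7:19310046-19310295 (minus strand), Jun chr4:95052223-95052472 (minus strand) and Jund chr8:70697489-70697738 (plus strand).
Fos: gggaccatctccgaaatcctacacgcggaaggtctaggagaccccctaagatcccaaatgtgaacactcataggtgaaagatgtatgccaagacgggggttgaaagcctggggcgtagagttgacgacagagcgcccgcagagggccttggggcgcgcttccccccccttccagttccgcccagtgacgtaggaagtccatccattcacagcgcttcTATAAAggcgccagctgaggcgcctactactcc
Fosb: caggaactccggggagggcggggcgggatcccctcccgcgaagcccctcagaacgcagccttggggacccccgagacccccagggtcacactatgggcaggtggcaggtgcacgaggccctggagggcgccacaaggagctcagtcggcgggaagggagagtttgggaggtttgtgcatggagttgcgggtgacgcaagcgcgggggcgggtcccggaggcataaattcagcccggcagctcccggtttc
Jun: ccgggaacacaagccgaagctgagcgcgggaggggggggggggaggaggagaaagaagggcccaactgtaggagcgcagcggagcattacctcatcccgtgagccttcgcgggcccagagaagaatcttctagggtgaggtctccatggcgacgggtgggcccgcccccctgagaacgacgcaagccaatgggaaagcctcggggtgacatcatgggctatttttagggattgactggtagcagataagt
Jund: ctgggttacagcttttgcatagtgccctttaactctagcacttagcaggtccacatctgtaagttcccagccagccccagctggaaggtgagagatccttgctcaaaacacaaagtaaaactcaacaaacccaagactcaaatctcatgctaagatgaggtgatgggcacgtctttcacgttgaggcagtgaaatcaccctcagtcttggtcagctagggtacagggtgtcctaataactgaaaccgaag
Of the 10 genes, 7 matched a RefSeq promoter window (Egr1, Egr3 and Ier2 did not). On both strands of these 250 bases the searches were for TGACGTCA, the cyclic AMP response element, TGACTCA or TGAGTCA, the AP-1 site, GCGTGGGCG, an Egr site, TATAAA, and the CArG box of serum response factor. The motifs do not overlap in these windows. Fos was the only one of the 7 genes with TATAAA, 33 to 28 bases upstream of its start, and 12.4% of 32851 windows hold that motif. TGACGTCA, the AP-1 site and the Egr site were matched in 0 of the 7 genes and in 1.55%, 4.46% and 0.536% of all windows. Only exact matches were counted, so variants such as the tgacatca in the Jun window are left out. Sites farther upstream than 250 bases were not searched.

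The CArG box was matched in 1 of the 7 genes, Egr2, in 4 of its 5 windows, and in 1.47% of all windows. The 2 distinct Egr2 matches, each with 10 flanking bases and the box in capitals, lie on the plus strand at chr10:67537484-67537513 (site A) and chr10:67537787-67537816 (site B).
Egr2 site A: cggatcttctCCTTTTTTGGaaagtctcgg
Egr2 site B: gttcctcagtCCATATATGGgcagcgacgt
A match describes letters only. The lack of a match does not mean that a gene has no such site, since variant sites and sites outside the windows were not searched.

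Within a library the balance of Fos to Jun transcripts does not depend on scaling between libraries. Fos over Jun was 0.190 in the KIT-labelled library and 48.7 in the THY1-labelled library, as ratios of FPKM. Fosb over Jund was 0.0287 in the KIT-labelled library and 3.80 in the THY1-labelled library. All 6 ratios of a Fos gene to a Jun gene were below 1 in the KIT-labelled library and above 1 in the THY1-labelled library, and they differed between the libraries by 27.1-fold (Fosb over Junb) to 388-fold (Fos over Jund). Each sets a gene with 4 to 5 exons (class median difference 0.99) over a single-exon gene (class median 2.64). The part of exon number in the ratios was not tested. In the KIT-labelled library Fos and Fosb rest on 3.15 and 5.44 fragment equivalents, so these ratios are imprecise. The summed level of the 6 AP-1 genes, unlike these ratios, does depend on scaling: it was 199 FPKM in the KIT-labelled library and 169 FPKM in the THY1-labelled library as deposited, and with median ratio scaling the KIT-labelled sum came to 134 FPKM. Fos and Fosb made up 4.03% of that sum in the KIT-labelled library and 77.6% in the THY1-labelled library, and the Jun genes made up 87.5% in the KIT-labelled library and 9.01% in the THY1-labelled library.

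**Figure D2:**
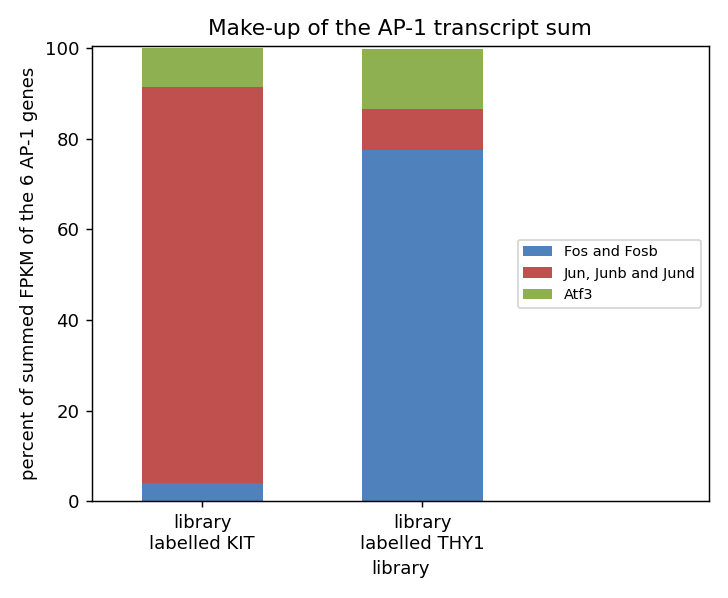
Percent of the summed FPKM of the 6 AP-1 genes contributed by Fos and Fosb (blue), Jun, Junb and Jund (red) and Atf3 (green), with the KIT-labelled library on the left and the THY1-labelled library on the right. The Jun genes hold 87.5% of the sum in the KIT-labelled library and 9.01% in the THY1-labelled library. They have a single exon, and 89.5% of single-exon coding genes were higher in the KIT-labelled library.

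Atf3, which dimerises with Jun proteins among others, was at 16.8 FPKM in the KIT-labelled library and 22.6 FPKM in the THY1-labelled library. Its difference of -0.41 was the smallest in size of the 10, and it made up 8.44% of the AP-1 sum in the KIT-labelled library and 13.3% in the THY1-labelled library. Without replicates, a difference of this size cannot be told from variation between libraries.

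The Egr genes were low in both libraries. Egr1, induced by growth factors in most cell types, was at 4.08 FPKM in the KIT-labelled library and 2.81 FPKM in the THY1-labelled library, a difference of 0.42. Egr2, known for its role in myelinating cells, was at 1.21 FPKM in the KIT-labelled library, against 2.53 FPKM in the THY1-labelled library, a difference of -0.67. Egr3 was at 2.66 FPKM in the KIT-labelled library and listed at 0 in the THY1-labelled library, a difference of 1.87 on the log2(FPKM + 1) scale. The levels in the KIT-labelled library correspond to 6.69, 1.31 and 3.83 fragment equivalents for Egr1, Egr2 and Egr3. At such depth an order among the 3 genes was not detectable in the KIT-labelled library. The THY1-labelled levels correspond to 29.5, 17.5 and 0 fragment equivalents for Egr1, Egr2 and Egr3, with Egr3 the lowest there. Summed, the 3 genes came to 7.95 FPKM in the KIT-labelled library and 5.33 FPKM in the THY1-labelled library, far below the AP-1 sums. Ier2 was at 9.46 FPKM in the KIT-labelled library and 1.36 FPKM in the THY1-labelled library, a difference of 2.15. These values rest on 5.26 fragment equivalents in the KIT-labelled library and 4.84 in the THY1-labelled library.

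Ranks within each library need no scaling between libraries. Fos ranked at percentile 57.6 of all genes in the KIT-labelled library and at percentile 94.9 in the THY1-labelled library, and Fosb at 56.9 in the KIT-labelled and 83.3 in the THY1-labelled library. Jund ranked at percentile 97.3 in the KIT-labelled library and 63.4 in the THY1-labelled library, and Jun at 82.3 in the KIT-labelled and 45.1 in the THY1-labelled library. Atf3 ranked at 79.3 in the KIT-labelled and 77.6 in the THY1-labelled library. Of the 10 genes, 7 ranked higher in the KIT-labelled library and 3 in the THY1-labelled library (Fos, Fosb and Egr2). The same share over all genes was not counted. The KIT-labelled library lists 6866 genes at 0 and the THY1-labelled library 5006, which lifts the percentile of detected genes more in the KIT-labelled library. Ranked among genes above 0, Atf3 turned, at 69.0 in the KIT-labelled and 70.5 in the THY1-labelled library. The other genes above 0 in both libraries kept their direction. Genes listed at 0 share a rank, which put Egr3 at percentile 12.1 in the THY1-labelled library.

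**Figure D3:**
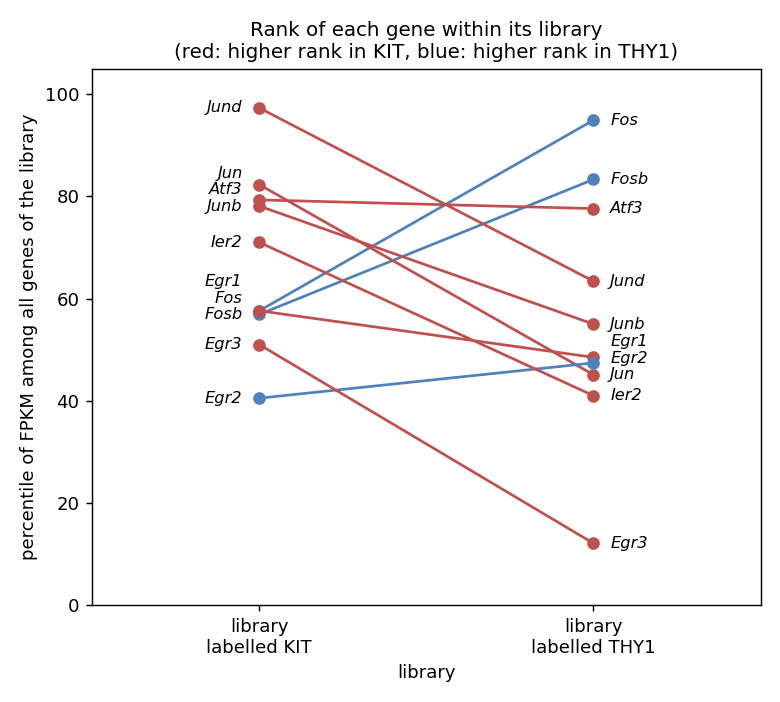
Percentile of each gene's FPKM among all genes of the KIT-labelled library (left) and the THY1-labelled library (right), with 1 line per gene. Red lines (7 genes) rank higher in the KIT-labelled library and blue lines (Fos, Fosb and Egr2) rank higher in the THY1-labelled library, with Fos at percentile 57.6 in the KIT-labelled and 94.9 in the THY1-labelled library.

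Exon number moved with these differences. Jun, Junb, Jund and Ier2 are single-exon genes in GENCODE M21, and all 4 were higher in the KIT-labelled library. Among 410 coding genes with 1 exon that reached 1 FPKM in either library, 89.5% were higher in the KIT-labelled library and 2.68% in the THY1-labelled library, with a median difference of 2.64. For coding genes with 4 to 5 exons, such as Fos, Fosb, Egr2 and Atf3, 49.9% were higher in the KIT-labelled library and 30% in the THY1-labelled library. The share higher in the KIT-labelled library was 68.8% for genes with 3 exons, as Egr1 and Egr3 have in their largest coding transcripts, and 19.2% for genes with over 20 exons. Without olfactory receptor, vomeronasal receptor, taste receptor and histone genes it was 89.0% of 353 single-exon genes. The 4 of 4 single-exon genes among the 10 are to be read beside the 89.5% of their exon class, and the part of exon number in the Jun differences was not tested.

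Set against the genes of the same exon class, Jund lay above, Jun near and Junb below the median, and Fos and Fosb lay below theirs. The classes differ in spread. Percentiles 5 to 95 ran from 0.51 to 4.61 for genes with 1 exon and from -4.63 to 3.83 for genes with 4 to 5 exons. Fos and Fosb lay within the latter range. Jund exceeded 84.6% of single-exon coding genes in its difference, Jun 59.0%, Ier2 36.6% and Junb 21.2%. After subtracting the class median, the difference of Ier2 was -0.49. Among coding genes with 4 to 5 exons, 6.3% had a lower difference than Fos and 13.5% a lower one than Fosb. Egr3 sat at its class median (0.03), whereas Egr1, Egr2 and Atf3 were at -1.42, -1.67 and -1.40 relative to theirs. On this scale, on which Jund alone of the 10 was at least 2-fold higher in the KIT-labelled library, 35.4% of coding genes were higher in the KIT-labelled and 35.5% in the THY1-labelled library.

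**Figure D4:**
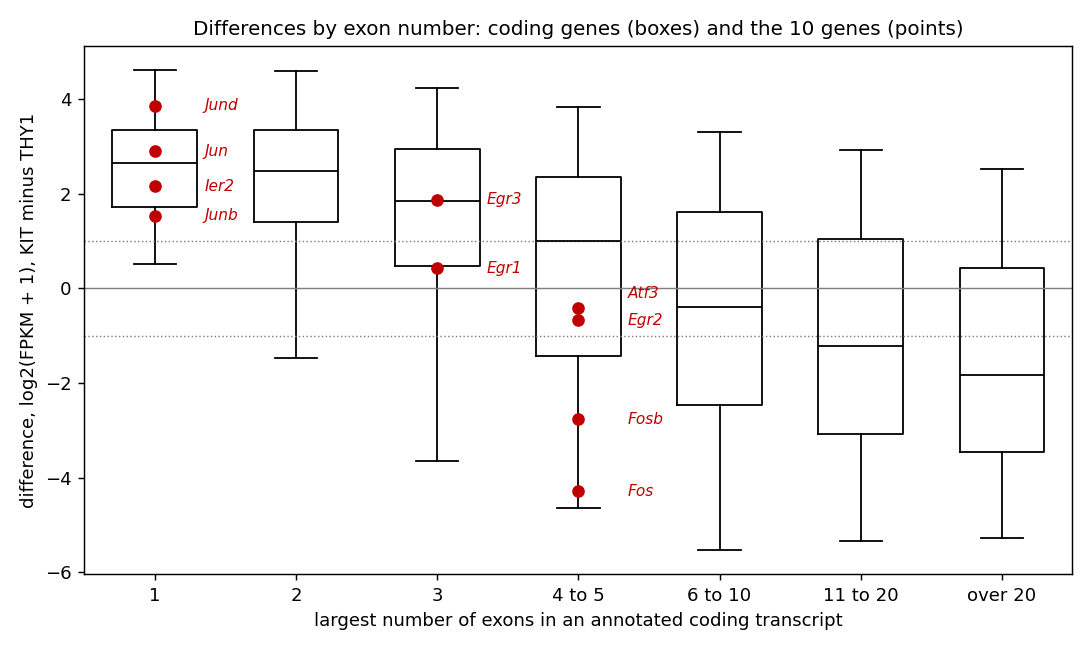
Difference in log2(FPKM + 1), KIT-labelled minus THY1-labelled, of coding genes by the largest number of exons in an annotated coding transcript, as boxes (median and quartiles, whiskers at percentiles 5 and 95), with the 10 genes as red points. Dotted lines mark 2-fold. The median of single-exon genes is 2.64 and that of genes with over 20 exons is -1.83, Jun and Jund lie above the median of single-exon genes, and Fos and Fosb lie below the median of 0.99 for 4 to 5 exons.

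Lists of regulators, relatives and targets were then examined, chosen from textbook knowledge with earlier results of these data known. Of 20 upstream regulators (serum response and CREB factors and the MAP kinases that act on them), 4 were at least 2-fold higher in the KIT-labelled library and 11 in the THY1-labelled library, with a median difference of -1.41. All 20 have over 3 exons, and of coding genes with over 3 exons 31.7% were higher in the KIT-labelled library and 47.2% in the THY1-labelled library. The median was -0.65 among genes above 0 in both libraries and -0.24 relative to the exon class median. Elk3, an ETS partner of serum response factor, was at 75.6 FPKM in the KIT-labelled library and 7.75 FPKM in the THY1-labelled library. The kinases Map2k2 and Rps6ka3 were at 2.37 and 1.11 FPKM in the KIT-labelled library, against 66.9 and 60.1 FPKM in the THY1-labelled library. Mapk9, which encodes a JNK kinase that phosphorylates Jun, was listed at 0 in the KIT-labelled library, against 14.4 FPKM in the THY1-labelled library, as was the testis factor Crem, against 89.7 FPKM in the THY1-labelled library.

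Among AP-1 relatives 11 of 15 were usable, meaning that they reached 1 FPKM in either library. Of these, 5 were higher in the KIT-labelled library and 4 in the THY1-labelled library (median 0.75, and -0.27 relative to the exon class median), where the shares over all genes were 39.5% and 41.1%. Mafk, a small Maf protein that pairs with other leucine zipper factors, was at 55.9 FPKM in the KIT-labelled library and 0.806 FPKM in the THY1-labelled library. Batf, an AP-1 factor of lymphocytes, was at 6.68 FPKM in the KIT-labelled library and listed at 0 in the THY1-labelled library. Atf2, which pairs with Jun, was at 1.28 FPKM in the KIT-labelled library, against 69.5 FPKM in the THY1-labelled library. All 5 relatives retained with 3 exons at most were higher in the KIT-labelled library, and 0 of the 6 with more exons were.

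The Egr list held Egr4 at 217 FPKM in the KIT-labelled library and 4.11 FPKM in the THY1-labelled library. In the KIT-labelled library this was far above Egr1, Egr2 and Egr3. The Egr corepressors Nab1 and Nab2 were at a listed 0 and 8.06 FPKM in the KIT-labelled library, against 8.30 and 33.5 FPKM in the THY1-labelled library. Wt1, a related zinc finger factor of Sertoli cells, was at 5.30 FPKM in the KIT-labelled and 1.45 FPKM in the THY1-labelled library. The list had 2 of 4 higher in each library (median -0.28). Over all genes the shares were 39.5% in the KIT-labelled and 41.1% in the THY1-labelled library. Egr4 has 2 exons, and 80.9% of coding genes with 2 exons were higher in the KIT-labelled library. Nab1 and Nab2 have 9 and 7 exons, and Wt1 has 10.

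Of 39 usable other immediate early genes, 10 were higher in the KIT-labelled library and 21 in the THY1-labelled library (median -1.24), against 39.5% of all genes in the KIT-labelled and 41.1% in the THY1-labelled library. The median was -0.22 among genes above 0 in both libraries, -0.86 without a filter and -1.79 relative to the exon class median. Ier5, of the same family as Ier2 and encoded by 1 exon, was at 37.5 FPKM in the KIT-labelled library and 1.01 FPKM in the THY1-labelled library. Arc, best known from neurons, was at 85.4 FPKM in the KIT-labelled and 8.81 FPKM in the THY1-labelled library, and the nuclear factor Csrnp1 at 75.9 FPKM in the KIT-labelled and 27.1 FPKM in the THY1-labelled library. In the other direction, the kinase Plk2 was at 0.911 FPKM in the KIT-labelled library, against 38.9 FPKM in the THY1-labelled library. The clock repressor Bhlhe40 and the kinase Sgk1 were listed at 0 in the KIT-labelled library, against 21.0 and 15.6 FPKM in the THY1-labelled library. Of 13 such genes with 3 exons at most, 7 were higher in the KIT-labelled library and 2 in the THY1-labelled library, whereas of 26 with more exons 3 were higher in the KIT-labelled and 19 in the THY1-labelled library.

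AP-1 target genes were higher in the KIT-labelled library for 4 of 14 usable members and in the THY1-labelled library for 9 (median -1.40, and -0.69 relative to the exon class median). Over all genes the shares were 39.5% higher in the KIT-labelled and 41.1% higher in the THY1-labelled library. The chemokine Ccl2 was listed at 0 in the KIT-labelled library, against 228 FPKM in the THY1-labelled library, and Plaur, the urokinase receptor, was listed at 0 in the KIT-labelled library, against 26.1 FPKM in the THY1-labelled library. The metallothionein Mt2 was at 27.9 FPKM in the KIT-labelled library and 291 FPKM in the THY1-labelled library, and the haem oxygenase Hmox1 at 83.2 FPKM in the KIT-labelled and 231 FPKM in the THY1-labelled library. The cyclin Ccnd1 was the reverse, at 83.6 FPKM in the KIT-labelled and 5.18 FPKM in the THY1-labelled library. Heat shock genes, which cell stress also induces, were higher in the KIT-labelled library for 5 of 10 usable members and in the THY1-labelled library for 2, beside the same shares over all genes. Their median of 0.77 turned to -0.28 relative to the exon class median. The inducible Hsp70 genes Hspa1a and Hspa1b were at 3.79 and 3.85 FPKM in the KIT-labelled library, against 0.636 and 0.569 FPKM in the THY1-labelled library, and since these are near-identical copies their values are uncertain. The chaperone Hsph1 was at 9.21 FPKM in the KIT-labelled library, against 59.5 FPKM in the THY1-labelled library, and the heat shock factor Hsf1 was at 58.6 FPKM in the KIT-labelled and 39.9 FPKM in the THY1-labelled library. The mitochondrial chaperonin Hspe1 was listed at 0 in the KIT-labelled library, against 2.01 FPKM in the THY1-labelled library.

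Over all 6 lists, 16 of 26 genes with 3 exons at most were higher in the KIT-labelled library (61.5%, where 77.5% of 1940 such coding genes were). Of 72 with more exons, 14 were higher there (19.4%, where 31.7% of 11466 coding genes were) and 44 were higher in the THY1-labelled library (61.1%, where 47.2% of coding genes were).

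**Figure D5:**
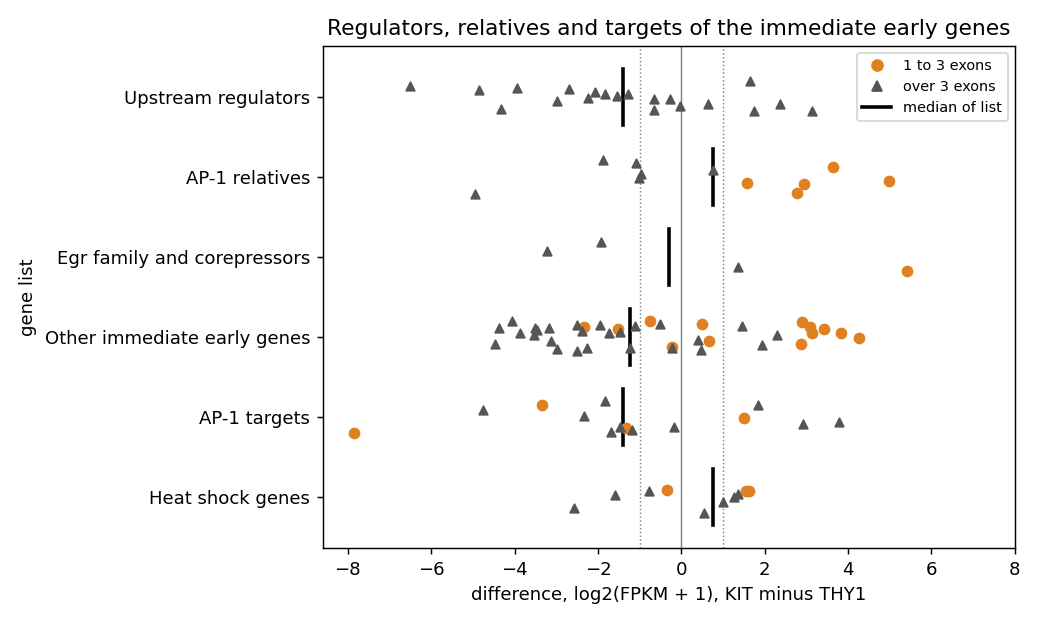
Difference in log2(FPKM + 1), KIT-labelled minus THY1-labelled, of each usable gene in 6 lists, with black bars at the list medians and dotted lines at 2-fold. Orange points are genes with 1 to 3 exons and grey triangles are genes with more. All 5 orange AP-1 relatives lie to the right of 2-fold, and the medians of upstream regulators (-1.41), other immediate early genes (-1.24) and AP-1 targets (-1.40) lie beyond 2-fold on the left. Relative to the exon class median, those of upstream regulators (-0.24) and AP-1 targets (-0.69) do not.

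Marker lists of testis cells differed in both directions, and with 2 libraries any lists that differ run alongside the Fos or the Jun differences. The counts stand beside 39.5% of all genes higher in the KIT-labelled library and 41.1% in the THY1-labelled library. A marker that reached 1 FPKM in 1 library alone was kept through that library and could only lie higher there. All usable Leydig, meiotic and differentiating spermatogonial markers have over 3 exons, and 47.2% of such coding genes were higher in the THY1-labelled library. Beside the higher Fos and Fosb of the THY1-labelled library, 6 of 7 Leydig cell markers were higher there, with a summed level of 185 FPKM in the KIT-labelled and 12850 FPKM in the THY1-labelled library, and Hsd3b6 and Hsd17b3 were listed at 0 in the KIT-labelled library. Likewise 8 of 8 meiotic markers were higher in the THY1-labelled library, with sums of 167 FPKM in the KIT-labelled and 7463 FPKM in the THY1-labelled library and with Dmc1 and Tex101 listed at 0 in the KIT-labelled library. Of 8 markers of differentiating spermatogonia 6 were higher in the THY1-labelled library, with sums of 41.4 FPKM in the KIT-labelled and 184 FPKM in the THY1-labelled library, and 5 were listed at 0 in the KIT-labelled library (Kit, Sohlh2, Dnmt3b, Crabp1 and Elmo1).

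Of all genes, 39.5% were higher in the KIT-labelled library. Among coding genes the share was 31.7% with over 3 exons and 77.5% with 3 exons at most. Of the usable markers below, 3 undifferentiated spermatogonial, 4 spermatid, 2 Sertoli, 2 macrophage and 1 endothelial have 3 exons at most. Beside the higher Jun genes of the KIT-labelled library, 4 of 4 usable peritubular markers were higher there (sums of 217 FPKM KIT-labelled and 55.4 FPKM THY1-labelled, with Des listed at 0 in both). The same was true of 4 of 4 usable T lymphocyte markers (sums of 42.9 FPKM KIT-labelled and 4.18 FPKM THY1-labelled, with Cd2 and Cd3g listed at 0 in both). It was also true of 5 of 6 usable markers of undifferentiated spermatogonia (sums of 260 FPKM KIT-labelled and 9.74 FPKM THY1-labelled, with Etv5 listed at 0 in the KIT-labelled library). Of these lists, Cnn1, Cd3e, Cd4, Cd8a, Gfra1, Id4 and Thy1 reached 1 FPKM in the KIT-labelled library alone, so the filter kept them through that library. Etv5 was kept through the THY1-labelled library alone. Cd3e rests on 1.32 and Cd4 on 3.13 fragment equivalents in the KIT-labelled library. Macrophage markers were split, with 3 of 8 higher in each library (sums of 222 FPKM KIT-labelled and 967 FPKM THY1-labelled, of which Aif1 alone held 880 FPKM). Endothelial ones were split too, with 2 of 4 usable in each (sums of 62.1 FPKM KIT-labelled and 10.3 FPKM THY1-labelled). Spermatid markers were higher in the KIT-labelled library for 5 of 8 and in the THY1-labelled library for 3 (sums of 4867 FPKM KIT-labelled and 2179 FPKM THY1-labelled). All 4 with 3 exons at most were higher in the KIT-labelled library. Of the 4 with more exons, 1 was higher in the KIT-labelled and 3 in the THY1-labelled library. Sertoli markers were higher in the KIT-labelled library for 3 of 5 usable and in the THY1-labelled library for 1 (sums of 18.7 FPKM KIT-labelled and 853 FPKM THY1-labelled). That 1 gene, Clu, held 848 FPKM of the THY1-labelled sum. The part of these cells in the Fos and Jun differences was not tested.

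The genes whose pattern was most like that of Jund, the gene of the 10 with the highest mean, were Amigo3 (138 FPKM in the KIT-labelled library and 8.19 FPKM in the THY1-labelled library), Hrh2, Fgf7, Btbd2 and Gpr183. Likeness was the distance in log2(FPKM + 1) over 2 libraries, which was 0.056 for Amigo3 and 0.116 for Gpr183, and many genes can match at so few points.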

How the data were processed

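RNA was measured by ribosomal-RNA-depleted, directional RNA-seq, per the labels' protocols. The deposited tables give 1 value per gene symbol and no unit. They were read as the authors' FPKM, since the submitters' processing notes name Cufflinks 2.1.1, and they also name TopHat 1.4.1, CASAVA and mm9 without roles. The sources used here do not give the annotation, filters or treatment of multiply aligned reads. The noncoding RNA Rpph1, at 71.8% of summed values in the KIT-labelled and 37.9% in the THY1-labelled library, lowers the other values of a library rich in it.

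Tables were assigned to samples as recorded in the series and to groups by title. Differences used a pseudocount of 1, which understates the change of low genes, and kept genes reaching 1 FPKM in either library (all 10 genes passed). No test was made, since each group has 1 library, and a difference of 2-fold stood in for a call. Exon numbers, lengths and overlaps came from GENCODE M21 by symbol, matched for 18400 symbols (89.1%), and no coordinates of the files were used. Depth is unknown. The worth of 1 fragment was FPKM times length at percentile 5 of values above 0 among single-transcript genes over 1000 bases (ratio 6.45 at percentile 2 and 5.96 at percentile 10). Older symbols were matched through RefSeq, and Insl3, Rhox5 and Hspa8 were not analysed here. Named genes are the 10 members and, per list, the 4 usable genes with the largest difference and the 2 with the highest mean, and cell type markers were counted as lists; a gene that this rule names is not reported here. The members, lists and rules were chosen with earlier results of these data known. Other settings were a pseudocount of 0.1, 3 scalings, no filter, a minimum of 5 FPKM, genes above 0 in both libraries, and 4-fold. Subtracting the median of the exon class was added after seeing the data. Python 3.11.15, numpy 2.4.6, pandas 2.3.3 and matplotlib 3.10.9 were used.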

Additional observations from a re-analysis of the deposited data

How the results depend on the processing

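No paired analysis was possible because each group has 1 library, and leaving out a library was not possible either. Under the settings chosen at the start, Fos (-4.73 to -4.07) and Fosb (-3.19 to -2.54) stayed at least 2-fold higher in the THY1-labelled library, and Jund (3.30 to 4.12), Jun (2.36 to 3.35), Ier2 (1.65 to 2.71), Junb (1.0 to 1.78) and Egr3 (1.48 to 4.79, where retained) at least 2-fold higher in the KIT-labelled library. With a pseudocount of 0.1 Egr2 reached -1.0, which made 3 of the 10 higher in the THY1-labelled library. Scaling moved the median of all genes by -0.46 (median ratio), 0.23 (upper quartile) and 0.19 (sum without Rpph1). The median of the 10 genes passed 2-fold with a pseudocount of 0.1 (1.11), upper quartile scaling (1.21), the sum without Rpph1 (1.17) and a minimum of 5 FPKM (1.53, 7 genes). At 4-fold, 3 of the 10 and 3714 of all genes (23.8%) were higher in the KIT-labelled library. In the THY1-labelled library 2 of the 10 and 29.4% of all genes were. Of 12302 genes above 0 in both libraries, 41.5% were higher in the KIT-labelled library and 4175 (33.9%) in the THY1-labelled library. Of the 9 members among them, 4 were higher in the KIT-labelled and 2 in the THY1-labelled library. With that filter the Egr list, without Nab1, had a median of 1.36. The medians of upstream regulators (-0.65) and other immediate early genes (-0.22, and -0.86 without a filter) no longer reached 2-fold. Relative to the exon class median, an alternative chosen after seeing the data, the median turned to -1.26, Ier2 to -0.49, Egr1 to -1.42 and Junb to -1.11, with 1 of the 10 higher in the KIT-labelled library and 6 in the THY1-labelled library. On that scale the medians of upstream regulators (-0.24) and AP-1 targets (-0.69) no longer reached 2-fold, and those of AP-1 relatives (-0.27), heat shock genes (-0.28) and the Egr list (0.12) changed sign within 2-fold. In the KIT-labelled library Fos, Fosb, Egr1, Egr2, Egr3 and Ier2 rest on 1.31 to 6.69 fragment equivalents each.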

Other observations

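GC content of the transcript also moved with the difference between the libraries. Of 683 coding genes with a transcript GC content of at least 60%, 56.1% were at least 2-fold higher in the KIT-labelled library and 25.8% in the THY1-labelled library. Of 3073 with a GC content under 45%, 33.0% were higher in the KIT-labelled and 50.6% in the THY1-labelled library. Jund (67.2%), Junb (62.6%) and Ier2 (60.9%) are in the first class, whereas Fos has a GC content of 51.9%, Jun 55.5% and Fosb 56.0%. Jun and Fosb are close in GC content but differed between the libraries in opposite directions (2.89 and -2.76). Among single-exon coding genes the share higher in the KIT-labelled library was 89.7% of 78 genes under 45% GC and 92.5% of 53 genes at 60% GC or more.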
